A study of Mus musculus with 9 samples.

Results

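Trpm1, Myh13, Lrrc31, Xaf1, A2m and Ngfr are 6 of the 35896 genes quantified in mouse embryonic stem cells, and were chosen by their measured levels: RNA that was high in self-renewal medium and close to the detection floor after that medium was withdrawn. The levels with and without LIF2i are therefore given here as a description with no test. The rule set no numerical threshold, and 26 other genes, all protein-coding, met both limits that follow. Mean CPM with LIF2i was at least 31.6 (the lowest of the 6). Mean CPM after withdrawal was no more than 3.51% of the gene's own mean with LIF2i. The 3.51% is the highest share left among the 6 by summed counts, a slightly different measure from the ratio of means. CPM are counts on a common library total scaled by TMM, a correction for differences in composition between libraries.

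All 9 libraries came from E14, a mouse embryonic stem cell line for which the labels name no genetic change. Control cells with LIF2i stayed throughout in serum medium that held the cytokine LIF, 1 µM PD0325901 (an inhibitor of the kinase MEK) and 1 µM CHIR99021 (which blocks GSK3, a kinase that marks beta-catenin for degradation). Control cells withdrawn from LIF2i spent 72 h in the same medium lacking all of these, and CK666 cells spent those 72 h without LIF2i and with 80 µM CK666, an inhibitor of the actin-nucleating Arp2/3 complex. The drug came in DMSO and no source used here says what solvent the controls were given, so an effect of CK666 and one of DMSO cannot be told apart. Each group had 3 cultures, numbered 1 to 3 and described by the submitters as biological and paired, and all cultures were of 1 cell line.

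LIF acts through JAK kinases and the transcription factor STAT3, and the pair of kinase inhibitors blocks ERK signalling and stabilises beta-catenin; together they hold embryonic stem cells in the naive pluripotent state. On withdrawal the naive transcription factors are lost and the cells move towards lineage commitment. The 6 genes are better known from other settings: an ion channel of retina and pigment cells, a neurotrophin receptor, a plasma protease inhibitor, a partner of apoptosis inhibitors, a muscle myosin and a leucine-rich repeat protein.

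Library totals lay between 16894327 and 22550952 estimated counts, so that 3 counts, taken as the floor, were worth 0.133 to 0.178 CPM. The replicate 1 libraries of the 3 groups stood apart, with 15637 to 17551 genes above 0 against 18080 to 18636 genes in replicates 2 and 3. The identity of the cells with LIF2i was borne out by 10 naive pluripotency genes, which summed to 3126 to 5686 CPM with LIF2i, 277 to 364 CPM without and 426 to 658 CPM with CK666. In the quasi-likelihood fit of edgeR across all genes, with p-values adjusted by Benjamini-Hochberg, 10 of those 10 were lowered by withdrawal. Markers of other cell types moved as well. Of 6 tested fibroblast or feeder genes 4 were raised and 0 lowered by withdrawal (21.1% and 19.7% of all tested genes). The raised ones were Thy1, Col1a2, Dcn and Col1a1. Of these, the Dcn call held in 7 and the Col1a1 call in 4 of 17 alternative analyses. The list of 8 summed to 12.5 to 28.3 CPM with LIF2i, 32.6 to 44.8 CPM without and 22.5 to 31.8 CPM with CK666. Of 7 tested primitive endoderm genes Dab2 was raised (2.80, adjusted p 4.0e-05) and Lama1 lowered, from 186 to 342 CPM to 9.34 to 19.4 CPM (-4.14, adjusted p 1.4e-06). Of 3 tested macrophage genes Cd68 was lowered (-1.45, adjusted p 0.0070), and the macrophage gene C1qa was at 0 in every library. The part of these cell types in the levels of the 6 genes was not tested. RNA of whole cultures does not separate fewer cells expressing a gene from less RNA in each cell; these cannot be told apart.

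In the withdrawn control cells 5 of the 6 genes averaged less than 1.2 CPM, and A2m averaged 8.24 CPM. The part of the level with LIF2i that was left ran from 0.229% for Trpm1 to 3.51% for Xaf1, with Myh13 at 0.813%, Lrrc31 at 1.11%, Ngfr at 1.31% and A2m at 3.47%. The place of Xaf1 at the top rested on replicate 2: over the 3 pairs it kept 1.46%, 8.85% and 3.02%, against 4.28%, 2.96% and 3.54% for A2m. These shares are ratios of summed counts on scaled library totals, and their exact 95% intervals cover counting error only. Every library with LIF2i lay above every withdrawn control library for 6 of 6 genes, which is the pattern the genes were chosen for; of all 14648 tested genes, 19.2% were separated in that direction, 40.7% were called for withdrawal, 21.1% raised and 19.7% lowered. The log2 fold changes for withdrawal were -8.62 (SE 0.47) for Trpm1, -6.98 (SE 0.41) for Myh13, -6.73 (SE 0.72) for Lrrc31, -6.14 (SE 0.52) for Ngfr, -4.82 (SE 0.17) for A2m and -4.77 (SE 0.44) for Xaf1. The first 3 of these carry no exact size, since Trpm1, Myh13 and Lrrc31 each had 1 or more withdrawn control libraries under the floor of 3 counts.

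**Figure D1:**
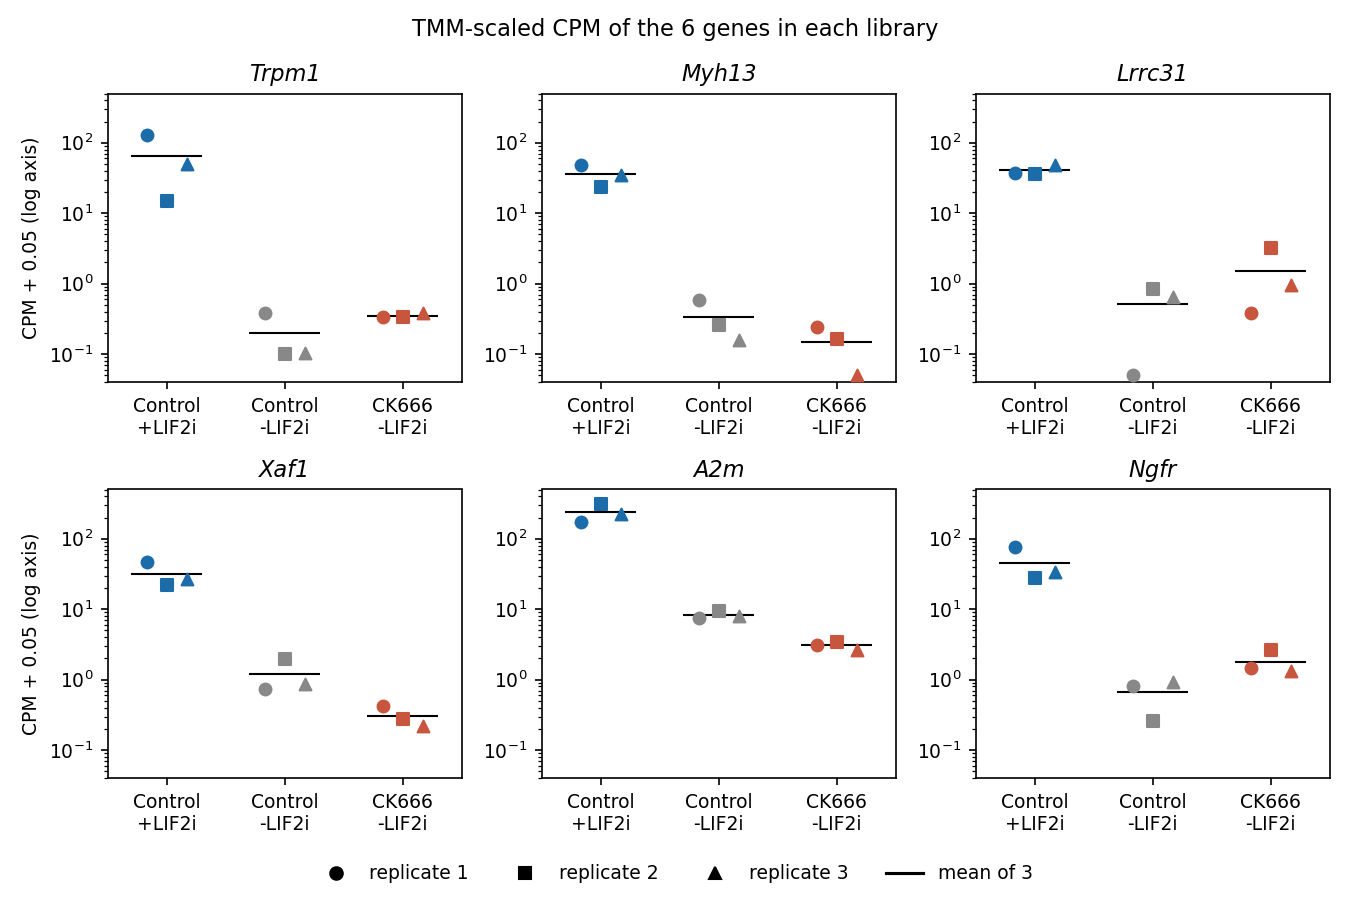
CPM of the 6 genes in each of the 9 libraries, on a log axis after adding 0.05; markers give the replicate number, colours the group and lines the mean of 3 libraries. The libraries with LIF2i lie far above the others in all 6 panels, and the withdrawn groups with and without CK666 separate from each other for Xaf1, A2m and Ngfr. Of all tested genes 7.69% separated with CK666 lower, as Xaf1 and A2m do, and 8.79% with CK666 higher, as Ngfr does.

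TRPM1 is a cation channel that opens in ON bipolar cells of the retina when glutamate falls, and its gene was first studied in melanocytes. Trpm1 (ENSMUSG00000030523.18) lies on chromosome 7 from 64153835 to 64269775, plus strand, in GRCm38. With LIF2i it stood at 130, 14.7 and 49.9 CPM in replicates 1, 2 and 3, after withdrawal at 0.338, 0.0519 and 0.0540 CPM, and with CK666 at 0.284, 0.283 and 0.335 CPM. The 6 withdrawn libraries held between 1 and 7 Trpm1 counts each, and replicate 1 was by far the highest of the libraries with LIF2i. That spread of 8.85 times between the highest and the lowest library with LIF2i was wider than in most genes: the median was 1.5 times over the 9224 genes with at least 10 CPM, and Trpm1 stood at the 99.2nd percentile of them. Ngfr spread 2.80 times, Xaf1 2.13 times, Myh13 2.05 times, A2m 1.82 times and Lrrc31 1.32 times.

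Few of the Trpm1 counts were assigned to transcripts that run to the end of the gene. Of 23 annotated transcripts, Trpm1-212 alone held 2325, 238 and 668 of the estimated counts with LIF2i, or 87.6%, 84.3% and 81.2% (mean 84.4%, SD 3.15, n = 3). By TPM, which also divides by length, its mean share was 74.6%. Trpm1-212 is annotated as a retained intron transcript of 1992 bases in 10 exons, from 64185381 to 64211427, without a coding sequence; the longest coding transcript, Trpm1-201, has 27 exons. The 4 transcripts that contain the last exon of the gene held 0, 3.15 and 17.9 counts in the same libraries. Reads shared between transcripts were divided by estimation, but 567 bases of Trpm1-212 are in no other annotated transcript.

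**Figure D2:**
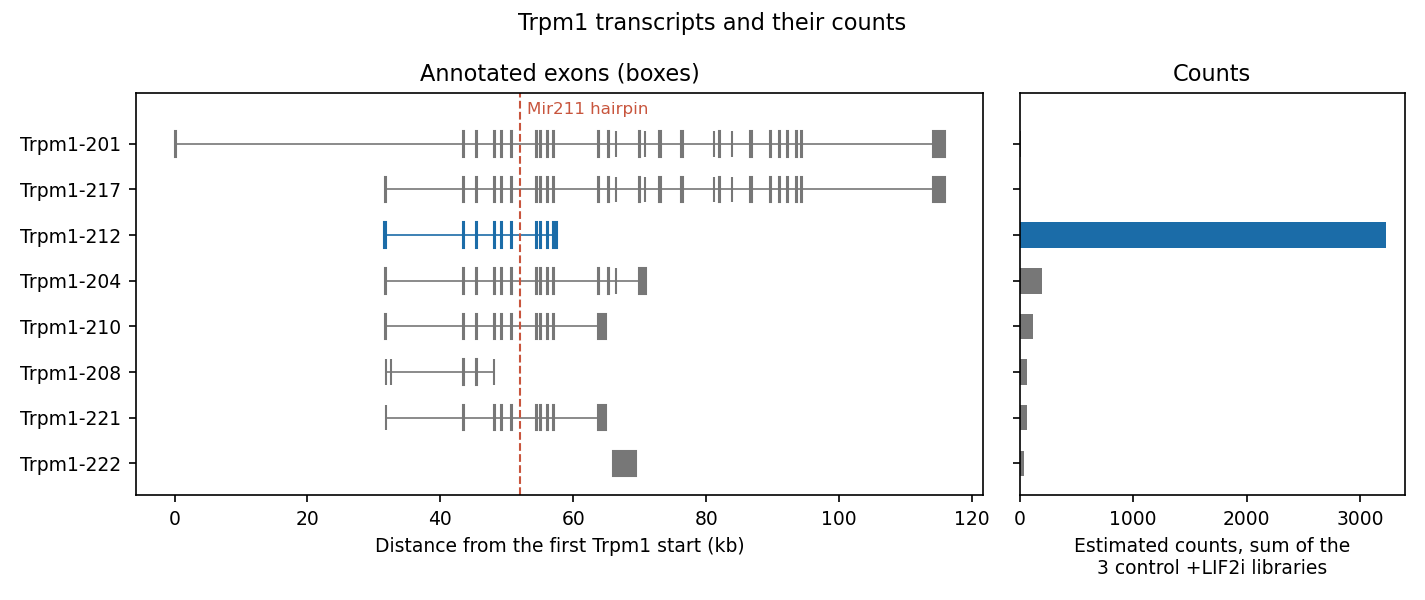
Left, exons (boxes) of 8 Trpm1 transcripts by distance in kb from the first start of the gene, with the place of the Mir211 hairpin as a dashed line; right, estimated counts of each transcript summed over the 3 libraries with LIF2i. The bar of Trpm1-212, the sum of 2325, 238 and 668 counts, is many times longer than any other.

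Trpm1 also has a pair of promoters, and the counts fell on transcripts of the inner one. Transcripts that start there (9 of them) held 98.7%, 96.5% and 94.9% of the Trpm1 counts with LIF2i, while the 4 that start at the outer promoter held 0%, 1.12% and 2.13%. The windows from 250 bases before to 50 bases after both starts are printed to let them be compared, from RefSeq on GRCm38.p6, plus strand, at chr7:64153585-64153884 (outer) and chr7:64185209-64185508 (inner). Capitals mark E-box letters of the kind that MITF and TFE factors are known to bind: the symmetric form CACGTG, and the M-box core, which reads CATGTG on one strand and its complement CACATG on the other.
Trpm1 outer promoter: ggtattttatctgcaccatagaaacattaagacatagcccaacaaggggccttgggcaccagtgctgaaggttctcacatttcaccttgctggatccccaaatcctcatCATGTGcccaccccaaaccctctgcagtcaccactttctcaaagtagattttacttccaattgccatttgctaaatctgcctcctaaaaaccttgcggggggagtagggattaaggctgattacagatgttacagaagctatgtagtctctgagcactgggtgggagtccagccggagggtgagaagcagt
Trpm1 inner promoter: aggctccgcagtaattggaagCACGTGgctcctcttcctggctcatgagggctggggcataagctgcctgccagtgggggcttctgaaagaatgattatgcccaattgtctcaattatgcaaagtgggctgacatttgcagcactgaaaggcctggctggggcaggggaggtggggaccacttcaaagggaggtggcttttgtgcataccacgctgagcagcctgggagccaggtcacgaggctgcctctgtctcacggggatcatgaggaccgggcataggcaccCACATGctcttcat
The inner window held CACGTG 229 bases before the start and CACATG 36 bases after it, counted from the start on which RefSeq sets the window; Trpm1-212 starts further upstream, at 64185381. The outer window held CATGTG 141 bases before its start. Of 32851 RefSeq windows of the same length, 7.15% held CACGTG and 14.2% held CATGTG on either strand, so such matches are common and mark no binding.

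The Mir211 hairpin lies in the same gene, at chr7:64205806-64205911, between exons 6 and 7 of Trpm1-212 and so within the stretch that the inner promoter transcribes. Its mature 5p strand from RefSeq, with the seed (bases 2 to 8) in capitals, is shown as the product known to be cut from Trpm1 introns; mature miRNAs were not analysed here.
mmu-miR-211-5p: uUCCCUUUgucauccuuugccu

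Of 7 other TRPM channel genes 5 passed the expression filter and 0 were called by edgeR in either direction, with Trpm7, a channel fused to a kinase, at 167 CPM with LIF2i and 163 CPM without. Of 8 genes for the ON bipolar cell machinery around TRPM1 6 were tested, and 3 were raised by withdrawal (21.1% of all tested genes were): Gnao1 (a G protein alpha subunit, log2 fold change 3.72, adjusted p 2.1e-04), Rgs11 (1.18, adjusted p 0.035; called in 9 of 17 alternatives) and Grm6, a glutamate receptor gene with no count in any LIF2i library and 1.25 CPM on average after withdrawal.

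MITF, the master transcription factor of melanocytes, is known to act on Trpm1 there. Mitf stood at 156, 77.3 and 91.8 CPM with LIF2i, at 4.25, 1.61 and 1.62 CPM after withdrawal and at 8.25, 4.13 and 3.46 CPM with CK666. The libraries with LIF2i did not overlap the others. Its log2 fold change for withdrawal was -5.51 (SE 0.19, edgeR adjusted p 9.3e-07), and with CK666 it was higher than in withdrawn controls by 1.11 (SE 0.18, edgeR adjusted p 0.028, higher in 3 of 3 pairs; called in 9 of 17 alternatives, 2.5e-04 to 0.58). Of the other MITF/TFE genes, Tfeb was lowered (-2.75, adjusted p 2.7e-04), Tfe3 was raised (0.79, adjusted p 0.0082) and Tfec did not pass the filter. Of 8 melanocyte markers only 3 passed the filter, and the 8 together summed to 36.6 to 84.1 CPM with LIF2i, 11.4 to 14.6 CPM without and 7.20 to 12.2 CPM with CK666. Most of the sum with LIF2i was Pmel, a melanosome fibril protein gene at 21.3 to 81.5 CPM there, which fell on withdrawal (-3.09, adjusted p 4.0e-04). The other tested markers, Dct (0.11, adjusted p 0.93) and Gpnmb (0.25, adjusted p 0.84), were not called for withdrawal. The pigment enzyme genes Tyr and Tyrp1 never passed 0.260 and 0.104 CPM in any library.

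NGFR, or p75NTR, is the low-affinity receptor shared by all neurotrophins. Ngfr (ENSMUSG00000000120.6) lies on chromosome 11 from 95568818 to 95587735, minus strand, and has a single annotated transcript, which carried all of its counts. It stood at 76.3, 27.3 and 33.6 CPM with LIF2i, at 0.772, 0.208 and 0.864 CPM after withdrawal and at 1.42, 2.55 and 1.29 CPM with CK666. All 3 CK666 libraries were above all 3 withdrawn controls. Of all tested genes 8.79% separated in that direction, and edgeR did not call the Ngfr difference (adjusted p 0.17). The level left was 1.31% (0.915 to 1.82%) in controls and 3.68% (2.98 to 4.50%) with CK666. The pairs spread beyond these counting intervals, at 1.01%, 0.761% and 2.57% in controls and 1.86%, 9.34% and 3.82% with CK666.

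The rest of the neurotrophin system moved in several directions. Of 18 genes 17 were tested, with 6 raised and 1 lowered by withdrawal (21.1% and 19.7% of all tested genes) and 0 called for CK666 by edgeR. Ntf3, a neurotrophin, was at 0 in the 3 libraries with LIF2i and at 2.07, 1.92 and 2.16 CPM in withdrawn controls. Among the partner receptors, Ntrk2 rose by 1.94 (SE 0.53, adjusted p 0.017) and Ntrk3 fell by 2.11 (SE 0.62, adjusted p 0.023) on the log2 scale, each called in 12 of 17 alternatives. Ntrk3 stood at 10.7, 1.67 and 1.70 CPM with LIF2i, so replicate 1 was far above the others. Rtn4r, a Nogo receptor, was raised (adjusted p 0.0091), from under the floor in 2 of 3 libraries with LIF2i. NGFR also marks neural crest, and of 8 crest and Schwann cell markers 6 were tested: Sox10 (adjusted p 0.0025, with 0 counts in LIF2i replicate 1) and Foxd3 (1.34, adjusted p 0.019) were raised and Tfap2a was lowered (-2.16, adjusted p 0.038). The Foxd3 call held in 13 and the Tfap2a call in 8 of 17 alternatives. Those 8 markers summed to 47.3 to 58.7 CPM with LIF2i, 53.9 to 105 CPM without and 48.0 to 120 CPM with CK666, and their part in the Ngfr levels was not tested. Most of that sum was Erbb3, a receptor tyrosine kinase gene named after its values were seen and not called for withdrawal (adjusted p 0.19), at 34.1 to 43.7 CPM with LIF2i, 34.7 to 88.6 CPM without and 29.5 to 107 CPM with CK666.

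A2M, alpha-2-macroglobulin, traps proteases of many kinds and is cleared through the receptor LRP1. A2m (ENSMUSG00000030111.9) lies on chromosome 6 from 121635376 to 121679227, plus strand, and A2m-201, its full-length coding transcript, carried 98.5% to 100% of its counts in each library. It stood at 174, 316 and 224 CPM with LIF2i, at 7.43, 9.34 and 7.93 CPM after withdrawal and at 3.08, 3.40 and 2.57 CPM with CK666. The 3 groups were fully separated. Of all tested genes 7.69% had every CK666 library below every withdrawn control. A2m kept the most counts of the 6 genes in withdrawn cells, 147 to 180 per control library. Per length it was also the highest of the 6 with LIF2i, at 72.4 TPM (SD 11.3, n = 3), followed by Trpm1 at 67.6 (SD 75.1), Lrrc31 at 42.2 (SD 6.89), Xaf1 at 31.4 (SD 24.0), Ngfr at 21.1 (SD 16.3) and Myh13 at 12.5 TPM (SD 5.68). No neighbours in that order differed by more than the larger of their SDs.

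A2M is best known as a plasma protein made by liver. None of 8 hepatocyte markers passed the filter; their sum was 0.0491 to 0.732 CPM with LIF2i, 0.540 to 19.8 CPM without and 0.503 to 0.793 CPM with CK666. The top of the range came from withdrawn control replicate 1, where the albumin gene Alb had 280 counts (13.5 CPM), against at most 1 count in each other library. A2m was at 7.43 CPM in that library, the lowest of the 3 withdrawn controls. Of 10 annotated genes for A2M relatives and its receptor 6 were tested. Pzp, a close paralog with which reads could be shared, went from 6.76 CPM with LIF2i to 1.78 CPM (log2 fold change -1.90, adjusted p 0.0020), and Lrp1 from 257 to 137 CPM (-0.91, adjusted p 0.0023). C3, a complement protein of the same family, was lower with CK666 than in withdrawn controls (adjusted p 0.040; called in 5 of 17 alternatives, 0.0013 to 0.38), from 1.68 to 0.179 CPM.

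XAF1 binds XIAP and counters its block of caspases, and its gene is known to respond to interferon. Xaf1 (ENSMUSG00000040483.15) lies on chromosome 11 from 72301629 to 72313733, plus strand. It stood at 46.2, 21.7 and 26.8 CPM with LIF2i, at 0.675, 1.92 and 0.810 CPM after withdrawal and at 0.379, 0.227 and 0.168 CPM with CK666. By CPM every CK666 library was below every withdrawn control, with 8, 4 and 3 counts against 14, 37 and 15. Of all tested genes 7.69% separated in that direction, and edgeR did not call the Xaf1 difference (adjusted p 0.091). By TPM the groups overlapped, with CK666 replicate 1 at 1.465 and the withdrawn controls at 0.457, 1.06 and 0.654. The level left with CK666 was 0.820%, 1.04% and 0.626% in the 3 pairs. Xaf1-204, a coding transcript of 6 exons, held 84.9%, 89.9% and 91.5% of the counts with LIF2i, and 59.2% on average by TPM.

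More interferon-stimulated genes were raised than lowered by withdrawal. Of 24 such genes 16 were tested, 8 raised and 5 lowered by withdrawal, and the 24 together summed to 146 to 215 CPM with LIF2i, 248 to 644 CPM without and 224 to 607 CPM with CK666. Bst2, a membrane protein that tethers virions, named after its values were seen, stood within that sum at 4.13 to 59.2 CPM with LIF2i, 107 to 350.4 CPM without and 100.3 to 439 CPM with CK666. Psmb8, an immunoproteasome subunit, rose by 7.21 (adjusted p 2.8e-04), Gbp2, a guanylate-binding protein, by 8.19 (adjusted p 6.3e-04) and the antiviral gene Rsad2 by 3.46 (adjusted p 0.015; called in 11 of 17 alternatives); all of these were at or under the floor of 3 counts with LIF2i, so the fitted values carry no exact size. Oasl2 had no count in any LIF2i library and stood after withdrawal at 3.18, 13.3 and 8.36 CPM. The only gene of the list called for CK666 was Irf1, a transcription factor of the interferon response, at 35.4, 104 and 75.8 CPM in withdrawn controls and 19.6, 22.9 and 32.6 CPM with CK666 (log2 fold change -1.43, SE 0.23, edgeR adjusted p 0.026; called in 9 of 17 alternatives, 1.1e-06 to 0.33). Among 10 genes for IAP proteins, their antagonists and caspases, Xiap fell by 0.52 (SE 0.13, adjusted p 0.012) and Birc2 by 0.54 (adjusted p 0.0079) on withdrawal, and Htra2 was raised by 0.71 (adjusted p 0.0017).

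MYH13 is the myosin heavy chain of extraocular and laryngeal muscle. Myh13 (ENSMUSG00000060180.12) lies on chromosome 11 from 67321658 to 67371586, plus strand, in the cluster of skeletal myosin genes. It stood at 48.1, 23.5 and 34.5 CPM with LIF2i, at 0.531, 0.208 and 0.108 CPM after withdrawal and at 0.190, 0.113 and 0 CPM with CK666. Withdrawn controls held 11, 4 and 2 counts and CK666 libraries 4, 2 and 0. The last allows up to 0.174 CPM at that depth before TMM scaling. The estimated split between its transcripts was not stable: Myh13-203 took 20.2%, 65.9% and 96.5% of the counts with LIF2i and Myh13-201 took 77.3%, 29.2% and 0.380%. Myh13-201 has 0 bases and Myh13-203 has 51 bases that are in no other annotated transcript. Bases that separate this pair from each other alone were not counted.

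**Figure D3:**
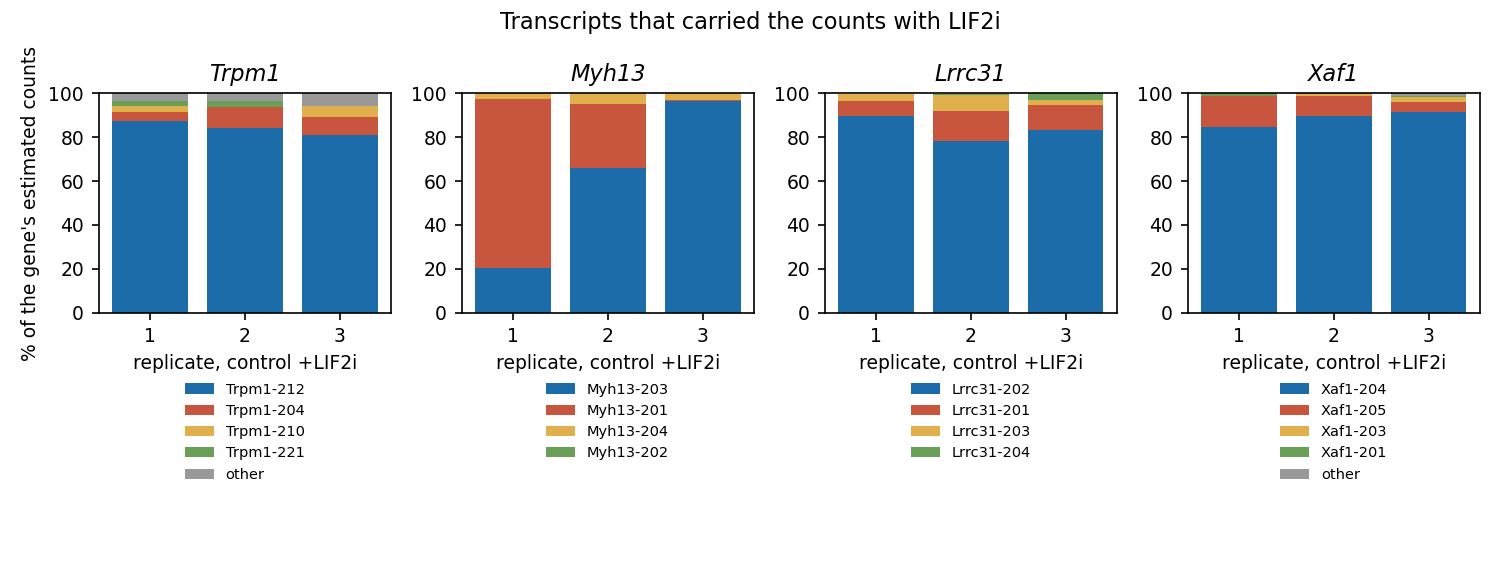
Share of the estimated counts of Trpm1, Myh13, Lrrc31 and Xaf1 that each transcript held in the 3 libraries with LIF2i, as stacked bars from 0 to 100%. Trpm1, Lrrc31 and Xaf1 are each led by 1 transcript in every replicate, whereas the split of Myh13 turns over from 77.3% Myh13-201 in replicate 1 to 96.5% Myh13-203 in replicate 3.

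Its neighbours Myh8 and Myh4, at 13.0 and 61.2 kb, reached at most 1 and 6 counts in any library. Of 9 other sarcomeric myosin heavy chain genes 4 were tested: Myh7b, at 20.6 to 30.3 CPM with LIF2i, was lowered by withdrawal (-1.92, adjusted p 1.0e-04), and Myh6 (2.44, adjusted p 3.2e-04) and Myh3 (1.63, adjusted p 0.0075) were raised. Of 10 skeletal muscle markers 6 were tested, with 2 raised and 1 lowered; the 10 together summed to 36.9 to 81.9 CPM with LIF2i, 33.3 to 51.9 CPM without and 26.7 to 46.1 CPM with CK666. The raised ones were Acta1, the skeletal muscle actin, from at most 0.442 CPM with LIF2i to 1.25 to 24.7 CPM (adjusted p 0.0078), and Myod1, the muscle determination factor, from 0 in every library with LIF2i to 0.363 to 0.772 CPM (adjusted p 0.0079). The lowered one was Mylpf, a fast myosin light chain at 20.3 to 29.3 CPM with LIF2i (-3.60, adjusted p 3.1e-04).

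LRRC31 is a leucine-rich repeat protein described in epithelia. Lrrc31 (ENSMUSG00000074653.10) lies on chromosome 3 from 30679058 to 30699843, minus strand, and shares 648 exonic bases (11.7%) with the antisense gene Gm15462, whose reads cannot be told apart where counting did not use strand. It stood at 36.8, 36.5 and 48.0 CPM with LIF2i, at 0, 0.779 and 0.594 CPM after withdrawal and at 0.332, 3.17 and 0.894 CPM with CK666. Withdrawn control replicate 1 had 0 counts, which allows up to 0.140 CPM before TMM scaling. CK666 replicate 2 was the highest withdrawn library with 56 counts. Lrrc31 was the steadiest of the 6 genes among libraries with LIF2i. Lrrc31-202, a coding transcript, held 89.9%, 78.2% and 83.6% of its counts there.

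**Figure D4:**
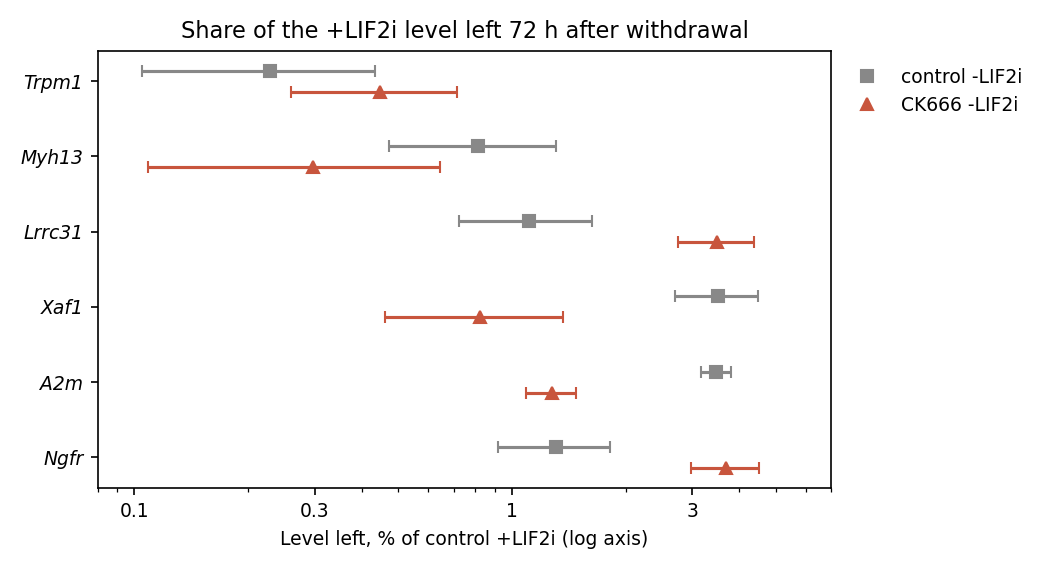
Share of the level with LIF2i that remained at 72 h for each gene, in percent on a log axis, for withdrawn controls (squares) and withdrawn cells with CK666 (triangles); points come from counts summed over 3 libraries and bars are exact 95% intervals for counting error. Trpm1, Lrrc31 and Ngfr lie higher with CK666 than without and Myh13, Xaf1 and A2m lie lower; the bars leave out the spread between cultures, and by edgeR only the A2m difference was called.

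The effect of CK666 was read from the 2 groups without LIF2i. The low level in withdrawn controls was part of how the genes were chosen, and those libraries are one arm here. Across all genes edgeR called 300 of 14648 (2.05%) at an adjusted p under 0.05, 169 raised (1.15%) and 131 lowered (0.894%). Of the 6 genes it called 1, A2m, which was 1.44 lower on the log2 scale with CK666 (SE 0.17, adjusted p 0.012, lower in 3 of 3 pairs). Lower CPM values that did not overlap were found for A2m and Xaf1 (7.69% of all tested genes) and higher ones for Ngfr (8.79% of all tested genes). The A2m call was lost with no replicate block (-1.45, adjusted p 0.26), without replicate 2 (-1.45, 0.081) or replicate 3 (-1.36, 0.20) of all groups, and without replicate 2 or 3 of either group alone (-1.52 to -1.36, 0.056 to 0.086). It was also lost with limma on log2(TPM + 1), where the value was -0.89 (adjusted p 0.086); without replicate 1 it held (-1.56, adjusted p 9.1e-04).

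The Xaf1 difference was -2.11 on the log2 scale (SE 0.58), which edgeR did not call (p 0.0053, adjusted p 0.091), although it was called when replicate 1 was left out of all groups (-2.76, adjusted p 0.018) and by DESeq2 (adjusted p 0.0051; 0.0051 to 0.85 over 17 alternatives). Without withdrawn control replicate 2 the Xaf1 value was -1.33 (adjusted p 0.28), and with limma on log2(TPM + 1) it was -0.20. Ngfr was 1.57 higher (SE 0.56, edgeR p 0.021, adjusted p 0.17; 0.079 without replicate 1 and 0.021 to 0.71 over the alternatives), and without CK666 replicate 2 it was 0.87 higher (adjusted p 0.51). Lrrc31 was not called (fitted value 1.59, SE 0.79, adjusted p 0.31; 0 counts in withdrawn control replicate 1), although it was higher in 3 of 3 pairs but with overlapping groups. Without CK666 replicate 2 the Lrrc31 value was 0.51 (adjusted p 0.87). Trpm1 and Myh13 had too few counts for a fold: 9 Trpm1 counts over the 3 controls against 17 with CK666 (adjusted p 0.48), and 17 Myh13 counts against 6 (adjusted p 0.29). The fitted differences of the 6 were positive for Trpm1, Lrrc31 and Ngfr and negative for Myh13, Xaf1 and A2m, and the A2m one alone was called. With CK666 all of them still stood far below the level with LIF2i, with 0.297% (Myh13) to 3.68% (Ngfr) of it left.

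The nearest protein-coding neighbours of the 6 genes had no part in how the 6 were chosen. Of 24 neighbours, 2 on each side of each gene, 15 were tested: withdrawal lowered 5 (33.3% of those tested, against 19.7% of all tested genes), raised 2 and left 8 uncalled by edgeR. Of the 5 lowered ones, 4 lay beside Lrrc31 or Xaf1. Beside Lrrc31, Lrriq4 (6.63 kb away) went from 11.9, 11.9 and 9.35 CPM to 0.0482, 1.04 and 0.270 CPM (adjusted p 2.8e-04). Lrrc34 (31.2 kb away) went from 97.2, 59.2 and 73.3 CPM to 1.06, 1.97 and 0.972 CPM (-5.84, SE 0.31, adjusted p 3.8e-06). On the other side of Lrrc31, Samd7 (46.45 kb away) did not pass the filter. It stood at 0.246, 0.575 and 0.304 CPM with LIF2i and at 0 in all withdrawn controls. The secretory pathway gene Sec62, 93.0 kb away on that side, stayed uncalled at 112 CPM with LIF2i and 121 CPM without.

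Beside Xaf1, the citrate transporter gene Slc13a5 (34.4 kb away) fell by 3.30 (SE 0.40, adjusted p 2.2e-04) and Tekt1, a gene for a tektin of cilia and flagella (31.0 kb away), by 3.08 (SE 0.42, adjusted p 4.5e-04) on the log2 scale. Fbxo39, only 0.711 kb from Xaf1, did not pass the filter. Around Trpm1, Ngfr and A2m the changes were smaller or opposite: Fan1, a DNA repair nuclease gene near Trpm1, changed by -0.66 (adjusted p 0.019; called in 8 of 17 alternatives, up to 0.45) and Spop near Ngfr by 1.16 (adjusted p 1.3e-04), while Iqsec3 near A2m was raised (adjusted p 0.0091), from at most 0.261 CPM to 0.972 to 1.87 CPM. With CK666 only Zfp652, near Ngfr, was called (0.77 higher, SE 0.14, adjusted p 0.033; called in 9 of 17 alternatives, 1.9e-04 to 0.42).

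**Figure D5:**
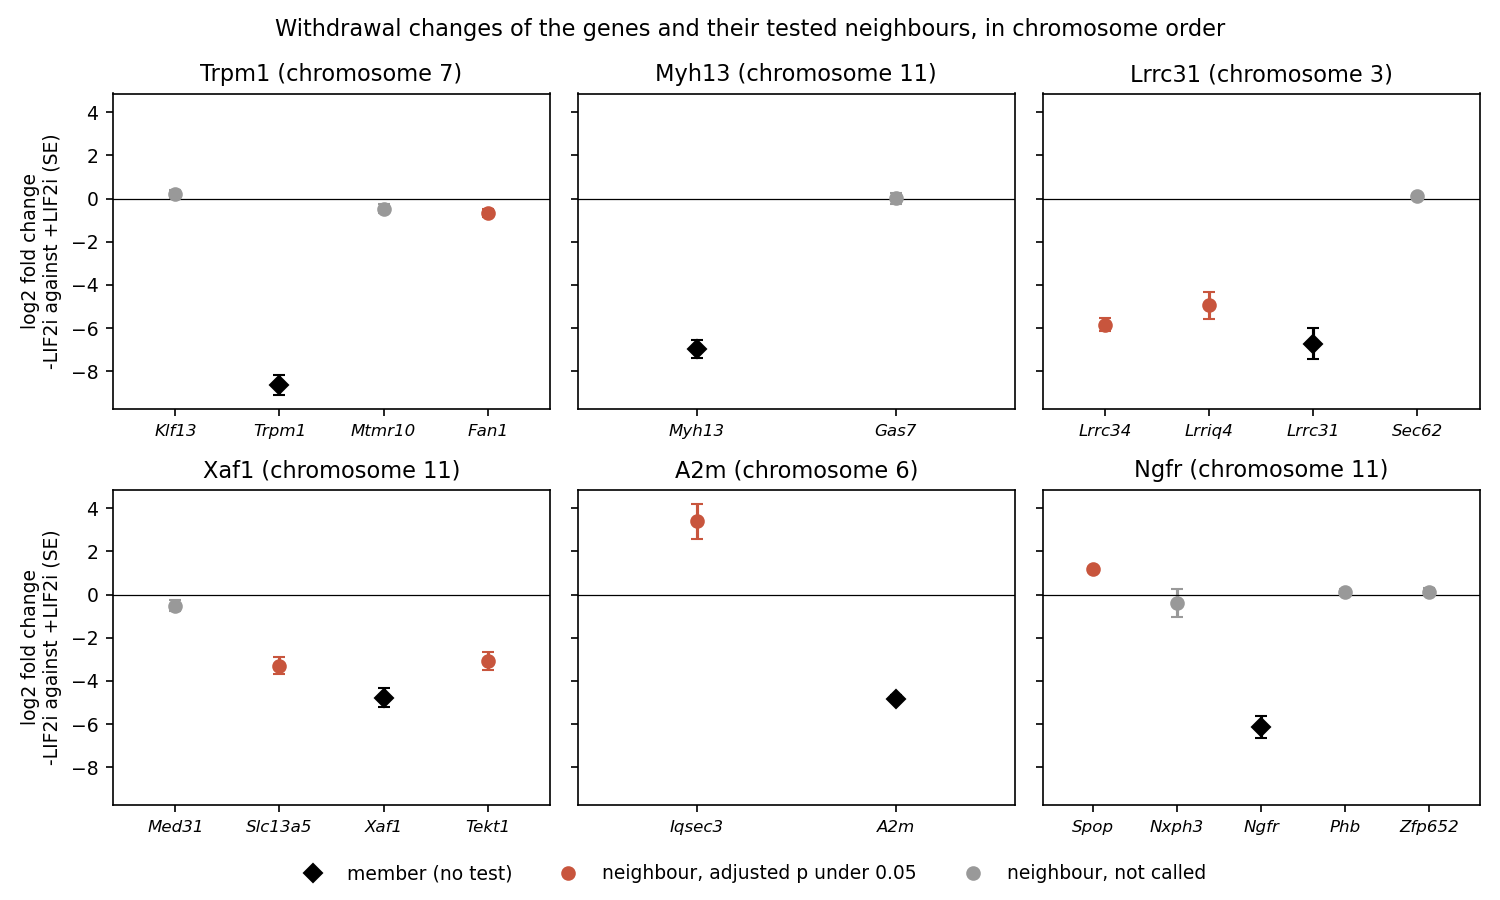
Log2 fold change for withdrawal, with its SE, of each of the 6 genes (black diamonds, no test) and of its tested neighbours in chromosome order; red neighbours had an edgeR adjusted p under 0.05 and grey ones did not. Lrrc34 sits near Lrrc31 at -5.84 and Lrriq4, under the floor in 1 withdrawn control, is also far below 0, while Gas7 beside Myh13 sits at 0.01.

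RefSeq promoter windows were found for 5 of the 6 genes (A2m was not matched), and 8 short motifs were searched in them on both strands. Beyond the E-boxes of Trpm1 the single match was TTCACTGAA, which has the STAT form of TTCNNNGAA, 223 bases before the start of the Myh13 window at chr11:67326853-67327152. That window is the one of Myh13-201; the start of Myh13-203, at 67321780, was not searched. That form occurs in 8.30% of all windows. The windows of Lrrc31, Xaf1 and Ngfr held none of the letters searched. Besides the STAT form and the E-boxes, these were the ESRRB site TCAAGGTCA (in 0.423% of all windows), the octamer bound by OCT factors, ATGCAAAT (1.74%), the interferon regulatory factor site GAAANNGAA (8.56%), the TCF/LEF site CTTTGAT (3.73%) and the TATA box letters TATAAA (13.6%). Base composition differed more: the Ngfr window had 23 CpG dinucleotides and 71.7% G+C, against a median of 7 and 52.7% over all windows, while the windows of Lrrc31 and Myh13 had 3 CpG each and the inner Trpm1 window 6.

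Across the 9 libraries the log2 CPM of the 6 genes correlated pairwise with Pearson r from 0.836 (Lrrc31 and Xaf1) to 0.978 (Xaf1 and A2m). This is a description, since all points share the step between libraries with and without LIF2i that chose the genes. By the same measure, the nearest tested protein-coding genes were Lap3 (r 0.996), Dlgap3 (0.992) and Trps1 (0.990) for Trpm1, and Fbrsl1 (0.993), Zfp459 (0.993) and Ddc (0.991) for Myh13. For Lrrc31 they were Tfap2c (0.996), Tsc22d1 (0.990) and Fbxo15 (0.989), and for Xaf1 they were AI467606 (0.995), Aifm1 (0.989) and Apobec3 (0.987). A2m was followed most closely by Taf13 (0.993), Tubb2b (0.992) and Ddc (0.991), and Ngfr by Ckb (0.992) and Trps1 (0.988). For each of the 6, 374 to 617 genes had an r of 0.9 or more. Tfap2c, a transcription factor gene, shared with Lrrc31 a low replicate 1 and a high CK666 replicate 2 among the withdrawn libraries: it stood at 2.08, 6.90 and 6.10 CPM in controls and at 6.45, 14.7 and 8.60 CPM with CK666.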

How the data were processed

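Poly-A RNA was measured in 9 libraries, 3 per group. Per the file headers, the authors deposited estimated counts (not normalised, not whole) and TPM for 119414 transcripts per library; the submitters' processing notes name FastQC, cutadapt 1.8.1, kallisto and sleuth and the builds GRCh38 and mm10 without roles. Strand use is not given in the sources used here. Transcripts were assigned to genes with GENCODE M21 (116640, 97.7%), and unassigned ones (0.895 to 1.08% of counts) were left out.

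Counts were summed per gene, rounded and tested with edgeR 4.0.16 in R 4.3.3: TMM scaling, expression filter (14648 genes kept), robust quasi-likelihood fit of all 9 libraries with replicate number as a block (4 residual degrees of freedom), called at an adjusted p under 0.05. The pairing comes from the design text and titles. Deviations from group means correlated at a median r of 0.407 (0.303 to 0.653) for same-numbered libraries of different groups. For other-numbered ones the median was -0.368, but replicates 2 and 3 correlated with each other at 0.214 to 0.286. P-values measure the spread between 3 cultures of 1 line. The fit was tested on simulated data. limma 3.58.1 on log2(TPM + 1) and DESeq2 1.42.0 served as alternatives. Transcript shares were given for libraries with at least 10 counts of a gene. Similarity used log2 CPM with a prior count of 2.

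The 6 genes, the gene lists and the rules were chosen with earlier results of these data known. Named genes are the 6, their 2 nearest protein-coding genes per side and the 3 most similar genes to each. From each list they are those called for CK666 and up to 4 called for withdrawal with the largest changes. Trpm7, Alb, Tyr, Tyrp1 and Tfec were named as undetected or reference members, and Bst2, Erbb3, Dct and Gpnmb after their values were seen. Not every gene of the rule is given in the text.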

Additional observations from a re-analysis of the deposited data

How the results depend on the processing

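Counts of called genes and the fitted values of named genes were recomputed under 17 alternatives (16 for Myod1), 12 of which left out libraries, and leading transcript shares under 4. Shares of the level left, correlations, list sums and motif matches were not recomputed. For withdrawal the number of called genes, 5967, became 3509 with no replicate block, and 3099 to 6588 when libraries were left out. For CK666 without LIF2i against control with LIF2i, 5408 became 2966 with no replicate block, and 2413 to 6129. For CK666 against withdrawn controls, 300 became 0 with no replicate block (edgeR; 1251 at an unadjusted p under 0.05), 565 with no low-count filter, 1136 with DESeq2 and the block, 36 with limma on log2(TPM + 1), and 0 to 1811 when libraries were left out, with 0 without replicate 3 of all groups (1360 at an unadjusted p under 0.05) and 1811 without replicate 1; the cause was not tested. Among the 6 genes the 1 call for CK666 became 0 with no replicate block or with limma on log2(TPM + 1), 3 with DESeq2 (Xaf1, A2m and Ngfr), and 0 to 2 when libraries were left out.

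The A2m difference ran from -1.63 to -0.89 and passed the threshold in 9 of 17 alternatives (adjusted p 4.4e-09 to 0.26). Xaf1 passed in 4 and Ngfr in 1; Trpm1, Myh13 and Lrrc31 passed in 0. The Trpm1 difference between CK666 and control turned from 1.04 to -0.25 with limma on log2(TPM + 1) (adjusted p 0.89): its TPM in withdrawn control replicate 1 was 2.32, where 4.79 of 7 counts were assigned to a short transcript of 441 bases. On that scale the withdrawal values of the 6 genes were also nearer to 0, from -4.98 (Lrrc31) to -3.34 (Myh13). The leading transcript shares by TPM moved to 74.6% for Trpm1 and 59.2% for Xaf1. Of 1298 recomputed values of single genes, 1122 counted as the same. For tested differences this meant the same direction and side of the threshold. The values of the 6 genes against the libraries with LIF2i were judged without a threshold. For them it meant the same direction and a shift smaller than the SD of the log2 pair differences. Calls for withdrawal failed in 1 or more alternatives for these neighbours and list genes of the text, given with their highest adjusted p and the number of alternatives passed: Fan1 0.45 (8), Rgs11 0.41 (9), Cd68 0.28 (15), Tfap2a 0.20 (8), Myh3 0.18 (14), Foxd3 0.14 (13), Ntrk3 0.14 (12), Lrp1 0.12 (15), Xiap 0.11 (14), Rtn4r 0.10 (15), Acta1 0.10 (15), Rsad2 0.099 (11), Ntrk2 0.096 (12), Birc2 0.078 (12), Tfe3 0.074 (16), Iqsec3 0.073 (15), Myod1 0.069 (15) and Htra2 0.056 (16). The same held for the fibroblast or feeder genes Col1a1 0.39 (4), Dcn 0.14 (7) and Col1a2 0.099 (15). Trpm1 and Myh13 had only 0 to 11 counts in each withdrawn library, and no difference was called for them under CK666.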
